A study of Mus musculus with 8 samples.

Results

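The genes described are the aminoacyl-tRNA synthetases measured in the mouse mammary line 3134, which descends from C127 cells of a mammary tumour of the RIII strain. Members were taken by gene symbol: 1 capital letter followed by ars, with or without a closing 1, 2 or 3, and Eprs, Farsa and Farsb. Only probe sets annotated to exactly 1 symbol were used, and where a gene had several, the brightest on average over all 8 arrays was taken. This gave 34 of 19938 genes, of which 18 have symbols that do not end in 2 and encode cytosolic enzymes, and 16 have symbols that end in 2 and encode mitochondrial enzymes. All 34 were kept, since no filter on signal was applied. The symbol rule uses no measured value.

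Every cell carried 2 stably integrated transgenes, A-fos and the tetracycline-regulated transactivator tTA (Tet-Off). The A-fos protein acts as a dominant negative, pairing with AP-1 subunits and keeping AP-1 off DNA, and in a Tet-Off system it is made when tetracycline is absent. The 4 groups of 2 arrays were cells titled plus tetracycline with 100 nM dexamethasone for 4 h, cells titled plus tetracycline without hormone (0 h), cells titled no tetracycline with dexamethasone for 4 h, and cells titled no tetracycline at 0 h, and serum stripped with charcoal was used in all of them for the last 48 h before hormone. Titles and the tetracycline characteristic were followed here, but on all 8 samples the treatment protocols state the reverse. The tetracycline dose in the protocols is 1 µg/ml. The arms are therefore called the plus-titled and the no-titled arm, and the labels leave unsettled which arm made A-fos. Since every cell carried A-fos, effects of tetracycline itself and of A-fos cannot be told apart. No label states that replicates came from separate cultures. If they did not, p-values reflect technical spread between these samples alone.

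Aminoacyl-tRNA synthetases join each amino acid to its own tRNA and so supply the ribosome. Most amino acids have separate nuclear genes for the cytosolic and the mitochondrial enzyme, while Gars and Kars encode both forms. Several cytosolic enzymes sit in a multisynthetase complex held together by the scaffold proteins Aimp1, Aimp2 and Eef1e1. Many cytosolic synthetase genes are listed among the targets of ATF4, a transcription factor whose translation rises when uncharged tRNA or other stress leads to phosphorylation of eIF2, and which binds C/EBP-ATF response elements. Dexamethasone is a synthetic glucocorticoid that activates the glucocorticoid receptor.

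RefSeq promoter windows (GRCm38.p6, 250 bases before to 50 after the start) were matched for 25 of the 34 members, 11 cytosolic and 14 mitochondrial. No window was matched for Cars, Hars, Lars, Nars, Rars, Vars and Wars among the cytosolic members. The C/EBP-ATF response element was searched as TGATGNAA on both strands. It was found for 4 of the 11 cytosolic members and 0 of the 14 mitochondrial ones, and for 4.51% of all 27025 genes with windows. The stretches of 30 bases around the 4 matches are shown because each belongs to a gene that was lower in the plus-titled arm at both times. They run 5′ to 3′ on the gene's strand, with the response element in capitals, in this or the reverse-complement orientation.
Gars, chr6:55037960-55037989 (plus strand): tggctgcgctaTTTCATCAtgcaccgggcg
Iars, chr13:49682126-49682155 (plus strand): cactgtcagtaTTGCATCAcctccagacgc
Tars, chr15:11399655-11399684 (minus strand): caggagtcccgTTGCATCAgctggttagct
Yars, chr4:129189895-129189924 (plus strand): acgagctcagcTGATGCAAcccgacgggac
The element lay at bases -30 to -23 of Gars and -15 to -8 of Tars, before the start, and at bases 8 to 15 of Iars and 4 to 11 of Yars, after it, counting the first transcribed base as 1. In Gars, Iars and Tars it was read on the opposite strand, and in Yars on the gene's own strand. For Gars, which had the largest arm difference of these 4 genes, the 250 bases before the start are given with the same capitals.
Gars, chr6:55037751-55038000 (plus strand): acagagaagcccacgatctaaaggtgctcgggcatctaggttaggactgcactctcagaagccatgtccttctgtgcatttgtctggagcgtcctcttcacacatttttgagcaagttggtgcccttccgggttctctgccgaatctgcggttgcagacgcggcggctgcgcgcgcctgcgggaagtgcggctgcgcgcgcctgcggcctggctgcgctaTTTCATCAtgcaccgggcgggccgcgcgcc
The 7 other cytosolic windows, those of Eprs, Farsa, Farsb, Kars, Mars1, Qars and Sars, held no match, which says only that these letters are not in these windows. Of these 7 genes, 3 were also lower in the plus-titled arm at both times (Eprs, Mars1 and Sars), and Farsb was lower at 4 h. A link between the element and the arm difference was not tested. A glucocorticoid response element, searched on both strands as GNACA, any 3 bases and TGTNC, was found for 0 of the 25 members and for 0.537% of all genes with windows. A match is a description of the letters and not of binding.

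Most cytosolic synthetase genes were lower in the plus-titled arm than in the no-titled arm, with and without hormone, while nearly all mitochondrial ones did not pass the test. At 4 h, 13 of the 18 cytosolic genes were lower and 5 did not pass (limma, adjusted p under 0.05 over all 19938 genes), against 4.32% of all genes called lower. At 0 h, 11 of 18 were lower and 7 did not pass, against 3.18% of all genes called lower. Of the 16 mitochondrial genes, 1 was lower at 4 h (Tars2) and 0 passed at 0 h. At 0 h, 3 of the 16 had an unadjusted p under 0.05, against 4538 of all 19938 genes. No synthetase gene was called higher in the plus-titled arm at either time, against 5.29% of all genes at 4 h and 6.2% at 0 h. Over both classes 14 genes were lower at 4 h and 11 at 0 h. In bulk RNA, fewer cells of a type and less RNA per cell cannot be told apart. Without plus-titled 4 h replicate 2 the 4 h count was 9, and without either no-titled 0 h array the 0 h count was 5.

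The median log2 difference between the arms was -0.66 at 4 h and -0.53 at 0 h for the cytosolic genes, -0.12 and -0.13 for the mitochondrial genes, and -0.01 and -0.02 for all genes. A median of -0.66 is a ratio of 0.633 between the arms. The cytosolic values ran between -0.98 and -0.09 at 4 h and between -0.93 and 0.01 at 0 h. Mitochondrial values ran between -0.65 and 0.17 at 4 h and between -0.39 and 0.25 at 0 h, so that the classes overlapped. The arrays of the arms did not overlap and were lower in the plus-titled arm for 18 of 18 cytosolic genes at 4 h and 17 of 18 at 0 h, against 27.2% and 24.9% of all genes. For the mitochondrial genes the same held for 10 of 16 at 4 h and 7 of 16 at 0 h, and the arrays did not overlap in the other direction for 3 and 4, against 24.4% and 25.0% of all genes.

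Among genes whose mean signal lay in the range of the cytosolic probe sets, 7.82 to 10.81 log2 units, 10.4% were called lower at 4 h and 7.71% at 0 h. In the range of the mitochondrial probe sets, 5.22 to 8.00, these shares were 5.65% and 3.73%. The part of signal level in the difference between the classes was not tested. All 11 synthetase genes lower at 0 h were also lower at 4 h. Of all 19938 genes, 634 were lower at 0 h, and 410 of these were also lower at 4 h. Lower at both times were thus 11 of the 34 members, against 2.06% of all genes. The arm differences at the 2 times share no arrays but share 1 estimate of the spread, and over the 34 genes they had a Pearson r of 0.929, given as a description across genes.

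**Figure D1:**
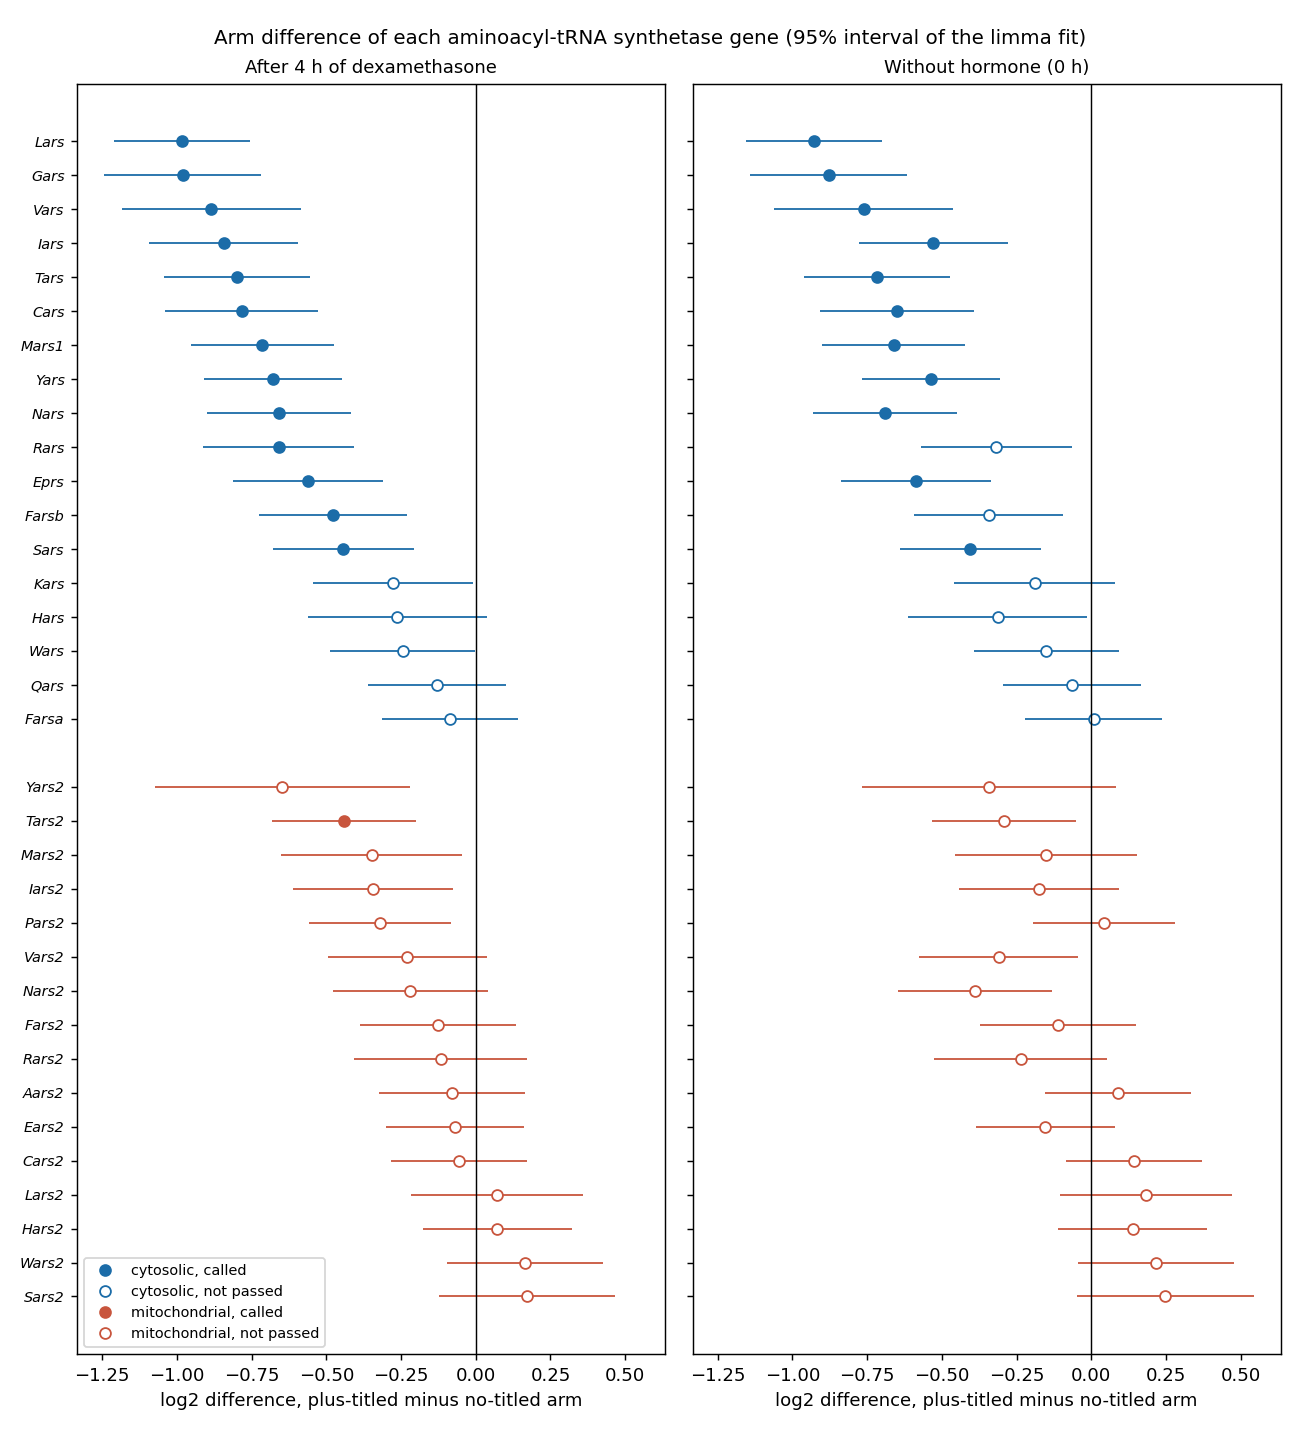
Log2 difference between the plus-titled and the no-titled arm for each of the 34 synthetase genes, at 4 h of dexamethasone (left) and at 0 h (right), with the 95% interval of the limma fit as a bar. Filled points passed an adjusted p of 0.05. The 18 cytosolic genes (blue) lie between -0.98 and -0.09 at 4 h, and the 16 mitochondrial genes (red) lie between -0.65 and 0.17.

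The cytosolic genes were separated by arm on each array. Set against each gene's own mean over the 8 arrays, the median deviation of the cytosolic genes was -0.27 and -0.36 log2 units in the plus-titled arrays at 4 h and -0.16 and -0.29 in those at 0 h, against 0.30 and 0.29 in the no-titled arrays at 4 h and 0.26 and 0.29 in those at 0 h. The cytosolic medians of the arms therefore did not overlap, while within the plus-titled arm those at 4 h and 0 h did. Mitochondrial medians were -0.02 and -0.01 in the plus-titled arrays at 4 h and 0.02 and -0.05 at 0 h, against 0.09 and 0.09 in the no-titled arrays at 4 h and 0.01 and 0.04 at 0 h. At 4 h these lay lower in the plus-titled arm, and at 0 h they overlapped.

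**Figure D2:**
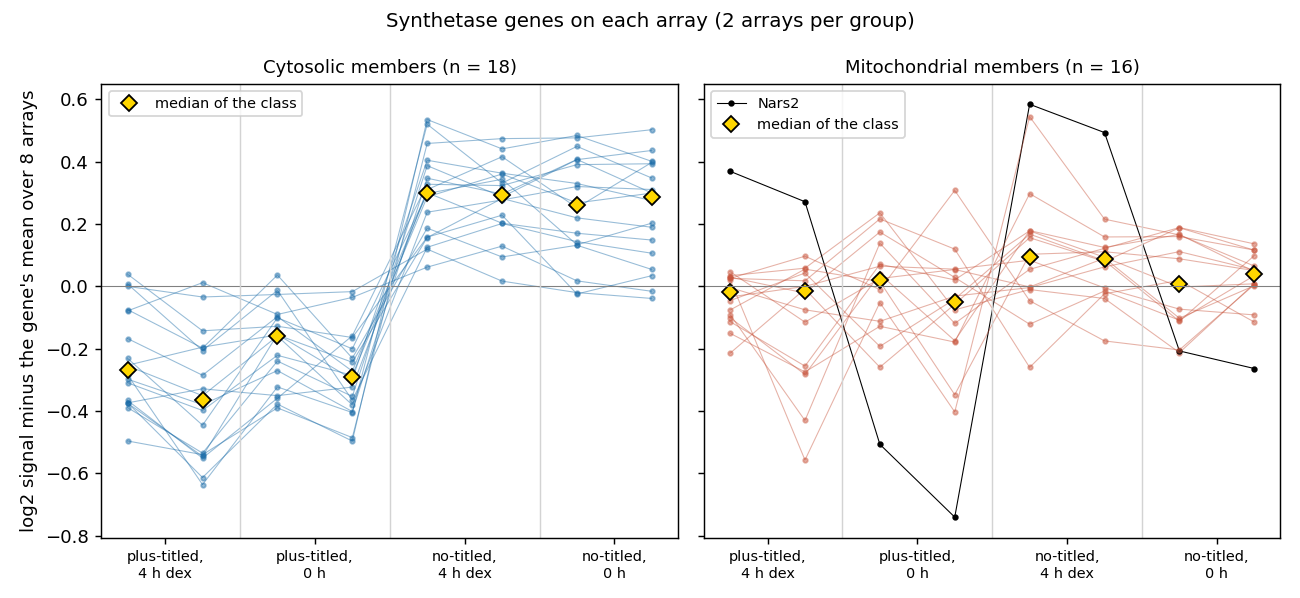
Log2 signal of each cytosolic (left, n = 18) and mitochondrial (right, n = 16) synthetase gene on each of the 8 arrays, minus the gene's mean over the 8 arrays. Thin lines join the values of 1 gene and diamonds mark the class median, which for the cytosolic genes lies between -0.36 and -0.16 in the plus-titled arrays and between 0.26 and 0.30 in the no-titled arrays. The black line is Nars2, the mitochondrial asparaginyl-tRNA synthetase gene.

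Medians over all probe sets were 5.36 to 5.47 log2 units, a likeness set in advance by the RMA processing of the deposited values. The replicates of a group had a Pearson r of 0.993 to 0.996. Plus-titled 0 h replicates differed by over 2-fold in 24 genes, and those of the other groups in 4 to 11. The markers of luminal mammary epithelium (Krt8, Krt18, Krt19, Epcam, Cdh1 and Elf5) had mean signals of 4.39 to 5.86, against a median of 5.66 over all genes, and no background level was measured. Of the fibroblast markers, Vim stood between 12.61 and 12.99 on the 8 arrays and did not pass at either time. Leukocyte (3.35 to 5.30), endothelial (4.33 to 7.15) and pituitary corticotroph markers (4.56 to 5.10) had 0 calls between the arms. Some markers moved with the arms. Of 4 markers of basal mammary epithelium, Krt14 was lower and Acta2 higher in the plus-titled arm at both times. Krt14 differed by -1.41 ± 0.17 (adjusted p = 0.000771) at 4 h and -1.39 ± 0.17 (adjusted p = 0.00093) at 0 h (values after ± are SE of the limma fit, n = 2 arrays per group). Acta2 had 7.87 and 6.63 in the plus-titled 4 h arrays and 8.15 and 6.96 in the plus-titled 0 h arrays, against 5.99 and 5.62 in the no-titled 4 h arrays and 5.95 and 5.84 in the no-titled 0 h arrays. It differed by 1.45 ± 0.39 (adjusted p = 0.0436) at 4 h and 1.66 ± 0.39 (adjusted p = 0.0262) at 0 h, calls kept in 3 and 5 of 8 fits without 1 array. Of 6 fibroblast markers, Col1a2 was lower at both times, Pdgfra was higher at both times and Pdgfrb was higher at 0 h. Col1a2 differed by -0.65 ± 0.11 (adjusted p = 0.00506) at 4 h and -0.70 ± 0.11 (adjusted p = 0.00364) at 0 h, and Pdgfra by 0.59 ± 0.12 (adjusted p = 0.0123) and 0.88 ± 0.12 (adjusted p = 0.00175). The call of Pdgfra at 4 h and that of Pdgfrb at 0 h were each kept in 4 of 8 fits without 1 array. The part of these markers in the synthetase differences was not tested.

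Of the 9 cytosolic enzymes with only the class I catalytic fold, 7 were lower at 4 h and 6 at 0 h. Lars, the leucyl-tRNA synthetase gene, stood at 8.47 and 8.42 log2 units at 4 h and 8.57 and 8.48 at 0 h in the plus-titled arm, against 9.42 and 9.44 at 4 h and 9.44 and 9.47 at 0 h in the no-titled arm. The arms were apart by many times the difference between replicates, and the log2 difference of -0.98 ± 0.10 (adjusted p = 0.000424) at 4 h and -0.93 ± 0.10 (adjusted p = 0.000711) at 0 h was the most negative among the 34 genes at both times. Vars, for valine, had 8.40 and 8.05 in the plus-titled 4 h arrays and 8.37 and 8.28 in the plus-titled 0 h arrays, against 9.21 and 9.02 in the no-titled 4 h arrays and 9.14 and 9.04 in the no-titled 0 h arrays. Its difference was -0.89 ± 0.14 (adjusted p = 0.00298) at 4 h and -0.76 ± 0.14 (adjusted p = 0.00659) at 0 h, with all plus-titled arrays below all no-titled ones. Iars, for isoleucine, had 9.60 and 9.43 log2 units at 4 h and 9.82 and 9.68 at 0 h in the plus-titled arm, against 10.38 and 10.34 at 4 h and 10.30 and 10.25 at 0 h in the no-titled arm. The arms were apart at both times, with differences of -0.84 ± 0.11 (adjusted p = 0.00142) at 4 h and -0.53 ± 0.11 (adjusted p = 0.0154) at 0 h. Iars is the only member with a second probe set, which was dimmer and was also lower, at -0.67 at 4 h (adjusted p = 0.00377) and -0.51 at 0 h (adjusted p = 0.015).

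Mars1, the methionyl-tRNA synthetase gene that also charges the initiator tRNA, had 8.64 and 8.69 in the plus-titled 4 h arrays and 8.66 and 8.69 in the plus-titled 0 h arrays, against 9.32 and 9.43 in the no-titled 4 h arrays and 9.27 and 9.41 in the no-titled 0 h arrays. It was lower, at -0.71 ± 0.11 (adjusted p = 0.00287) at 4 h and -0.66 ± 0.11 (adjusted p = 0.00438) at 0 h. Cars, for cysteine, had 8.60 and 8.42 log2 units at 4 h and 8.61 and 8.81 at 0 h in the plus-titled arm, against 9.30 and 9.29 at 4 h and 9.36 and 9.36 at 0 h in the no-titled arm. The arms did not overlap, with -0.78 ± 0.12 (adjusted p = 0.00261) at 4 h and -0.65 ± 0.12 (adjusted p = 0.00682) at 0 h. Without no-titled 0 h replicate 1 the adjusted p at 0 h was 0.0621 for Vars, 0.114 for Iars and 0.0547 for Cars. Without no-titled 0 h replicate 2 it was 0.0783 for Iars, 0.0522 for Cars and 0.0516 for Mars1, and without plus-titled 0 h replicate 2 it was 0.0681 for Iars.

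Yars, the tyrosyl-tRNA synthetase gene, had 8.91 and 8.82 in the plus-titled 4 h arrays and 8.99 and 8.93 in the plus-titled 0 h arrays, against 9.50 and 9.58 in the no-titled 4 h arrays and 9.48 and 9.51 in the no-titled 0 h arrays. Its arms were apart, with differences of -0.68 ± 0.10 (adjusted p = 0.00308) at 4 h and -0.54 ± 0.10 (adjusted p = 0.0103) at 0 h. Rars, for arginine, had 9.69 and 9.47 log2 units at 4 h and 9.82 and 9.72 at 0 h in the plus-titled arm, against 10.21 and 10.26 at 4 h and 10.05 and 10.12 at 0 h in the no-titled arm. It was lower at 4 h, at -0.66 ± 0.11 (adjusted p = 0.00542), while the value at 0 h, -0.32 ± 0.11 (adjusted p = 0.117), did not pass although the arrays did not overlap. The 0 h call of Yars had an adjusted p of 0.0688 and 0.0795 without no-titled 0 h replicate 1 or 2, and the 4 h call of Rars had 0.0573 without plus-titled 4 h replicate 2. The remaining class I genes passed at neither time. Wars, for tryptophan, had a difference of -0.24 ± 0.11 (adjusted p = 0.22) at 4 h and -0.15 ± 0.11 (adjusted p = 0.474) at 0 h. Qars, for glutamine, had 8.83 and 8.92 in the plus-titled 4 h arrays and 8.82 and 8.87 in the plus-titled 0 h arrays, against 8.97 and 9.03 in the no-titled 4 h arrays and 8.92 and 8.89 in the no-titled 0 h arrays. These arrays lay close together, with a difference of -0.13 at 4 h (95% interval -0.36 to 0.10) and -0.06 at 0 h (95% interval -0.29 to 0.17).

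Of the 8 cytosolic genes with only the class II fold, 5 were lower at 4 h and 4 at 0 h. Gars, the glycyl-tRNA synthetase gene whose promoter is shown above, had 9.21 and 8.97 log2 units at 4 h and 9.20 and 9.09 at 0 h in the plus-titled arm, against 10.12 and 10.02 at 4 h and 10.07 and 9.98 at 0 h in the no-titled arm. The difference was -0.98 ± 0.12 (adjusted p = 0.000936) at 4 h and -0.88 ± 0.12 (adjusted p = 0.00164) at 0 h, next to that of Lars in size. Tars, for threonine, had 8.20 and 8.06 in the plus-titled 4 h arrays and 8.35 and 8.24 in the plus-titled 0 h arrays, against 8.98 and 8.88 in the no-titled 4 h arrays and 9.00 and 9.03 in the no-titled 0 h arrays. Its arms did not overlap, with -0.80 ± 0.11 (adjusted p = 0.00173) at 4 h and -0.72 ± 0.11 (adjusted p = 0.00318) at 0 h. Nars, for asparagine, had 10.51 and 10.43 log2 units at 4 h and 10.54 and 10.41 at 0 h in the plus-titled arm, against 11.15 and 11.10 at 4 h and 11.21 and 11.11 at 0 h in the no-titled arm. The difference was -0.66 ± 0.11 (adjusted p = 0.00436) at 4 h and -0.69 ± 0.11 (adjusted p = 0.00369) at 0 h, and like those of Lars, Gars and Tars it kept its call at both times in each of the 8 fits without 1 array. Sars, for serine, had 10.15 and 10.21 in the plus-titled 4 h arrays and 10.25 and 10.16 in the plus-titled 0 h arrays, against 10.56 and 10.69 in the no-titled 4 h arrays and 10.62 and 10.59 in the no-titled 0 h arrays. It was lower, at -0.44 ± 0.11 (adjusted p = 0.0254) at 4 h and -0.40 ± 0.11 (adjusted p = 0.0392) at 0 h, the smallest change among the genes called at both times. The 0 h call of Sars was lost in each of the 8 fits without 1 array (adjusted p 0.0566 to 0.198), and the 4 h call without either plus-titled 4 h array (0.124 and 0.1) or either no-titled 4 h array (0.0822 and 0.167).

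Farsa and Farsb encode the α and β subunits of the cytosolic phenylalanyl-tRNA synthetase. Farsb had 8.99 and 8.87 log2 units at 4 h and 9.06 and 8.88 at 0 h in the plus-titled arm, against 9.46 and 9.36 at 4 h and 9.33 and 9.30 at 0 h in the no-titled arm. It was lower at 4 h, at -0.48 ± 0.11 (adjusted p = 0.023), and did not pass at 0 h, at -0.34 ± 0.11 (adjusted p = 0.087). The 4 h call was lost without any 1 of the 4 arrays compared, at adjusted p 0.0611 to 0.156. Farsa had 7.82 and 7.79 in the plus-titled 4 h arrays and 7.80 and 7.81 in the plus-titled 0 h arrays, against 7.94 and 7.84 in the no-titled 4 h arrays and 7.80 and 7.78 in the no-titled 0 h arrays. Its arrays overlapped at 0 h, and its difference was -0.09 at 4 h (95% interval -0.31 to 0.14) and 0.01 at 0 h (95% interval -0.22 to 0.24). The difference between the subunits was not tested. Hars, for histidine, and Kars, for lysine, passed at neither time. Hars had differences of -0.26 ± 0.14 (adjusted p = 0.294) at 4 h and -0.31 ± 0.14 (adjusted p = 0.198) at 0 h, and Kars of -0.28 ± 0.12 (adjusted p = 0.21) and -0.19 ± 0.12 (adjusted p = 0.408), with plus-titled arrays below no-titled arrays for both genes at both times.

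Eprs encodes a fused enzyme for glutamate and proline that holds a class I and a class II domain. Its arrays stood at 9.83 and 9.74 log2 units at 4 h and 9.93 and 9.71 at 0 h in the plus-titled arm, against 10.32 and 10.36 at 4 h and 10.41 and 10.40 at 0 h in the no-titled arm. The arms were apart, with differences of -0.56 ± 0.11 (adjusted p = 0.0115) at 4 h and -0.59 ± 0.11 (adjusted p = 0.01) at 0 h. At 4 h the adjusted p was 0.0916 without plus-titled replicate 2, 0.0688 without no-titled replicate 1 and 0.0744 without no-titled replicate 2. At 0 h it was 0.051, 0.074 and 0.0676 without the same replicates of that time.

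The cytosolic genes were also split by listed ATF4 response and by protein assembly. The 12 genes commonly listed as ATF4-responsive were called lower in 11 cases at 4 h and 11 at 0 h, all but Wars, with median differences of -0.75 and -0.66. Of the 6 that are not listed (Farsa, Farsb, Hars, Kars, Qars and Rars), 2 were lower at 4 h, Farsb and Rars, and 0 at 0 h, with medians of -0.27 and -0.25. In the multisynthetase complex, 5 of 7 measured enzymes (Eprs, Iars, Kars, Lars, Mars1, Qars and Rars) were lower at 4 h and 4 of 7 at 0 h. Outside the complex these counts were 8 and 7 of 11. The splits are descriptions with no test, and the ATF4 listing comes from general knowledge written down with earlier results of these data known.

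Among the mitochondrial enzymes, Tars2, for threonine, was the only gene called between the arms. Its arrays stood at 7.77 and 7.65 in the plus-titled 4 h arrays and 7.79 and 7.74 in the plus-titled 0 h arrays, against 8.22 and 8.08 in the no-titled 4 h arrays and 8.08 and 8.04 in the no-titled 0 h arrays. At 4 h it was lower, at -0.44 ± 0.11 (adjusted p = 0.029), and at 0 h the difference of -0.29 ± 0.11 (adjusted p = 0.135) did not pass. The 4 h call rests on a narrow margin. Of the 8 fits that each drop 1 array, 6 lost it, at 0.0689 and 0.184 without plus-titled 4 h replicates 1 and 2, at 0.2 and 0.073 without no-titled 4 h replicates 1 and 2, and at 0.051 and 0.051 without no-titled 0 h replicates 1 and 2.

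Yars2, the mitochondrial tyrosyl-tRNA synthetase gene, had 7.58 and 7.00 log2 units at 4 h and 7.51 and 7.16 at 0 h in the plus-titled arm, against 8.10 and 7.78 at 4 h and 7.72 and 7.62 at 0 h in the no-titled arm. At 4 h its replicates differed more than those of any other member, in each arm, which did not hold at 0 h. The difference between the arms, -0.65 ± 0.19 (adjusted p = 0.0624) at 4 h and -0.34 ± 0.19 (adjusted p = 0.334) at 0 h, did not pass. At 4 h the adjusted p was 0.0228 without plus-titled replicate 1. The other uncalled mitochondrial genes with a difference of at least 0.3 in size were Iars2, Mars2 and Pars2 at 4 h (-0.34, -0.35 and -0.32) and Nars2 and Vars2 at 0 h (-0.39 and -0.31). Aars2, Cars2, Ears2, Fars2, Hars2, Lars2, Rars2, Sars2 and Wars2 had differences between -0.13 and 0.17 at 4 h and between -0.24 and 0.25 at 0 h. Lars2, for leucine, had 6.13 and 6.16 in the plus-titled 4 h arrays and 6.33 and 6.02 in the plus-titled 0 h arrays, against 6.09 and 6.06 in the no-titled 4 h arrays and 5.88 and 6.11 in the no-titled 0 h arrays. Its difference was 0.07 at 4 h (95% interval -0.22 to 0.36) and 0.18 at 0 h (95% interval -0.11 to 0.47), while cytosolic Lars was the most negative gene of all members.

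For 12 amino acids both a cytosolic and a mitochondrial gene of matching symbol were measured. In all 12 pairs the cytosolic gene had the more negative arm difference, at 4 h and at 0 h, with a median gap between the pair of -0.47 at 4 h and -0.44 at 0 h. The gap was widest for Lars against Lars2, at -1.05 at 4 h and -1.11 at 0 h. Next at 4 h came Cars against Cars2, at -0.73, and Vars against Vars2, at -0.66. It was narrowest for Yars against Yars2 at 4 h, at -0.03, and for Rars against Rars2 at 0 h, at -0.08. Of the enzymes without such a partner, Eprs was more negative than both Ears2 (gap -0.49 at 4 h and -0.43 at 0 h) and Pars2 (gap -0.24 and -0.63). Set against Fars2, Farsb had a gap of -0.35 at 4 h and -0.23 at 0 h, and Farsa of 0.04 and 0.12. In each of the 12 pairs the mitochondrial gene was also the dimmer one. Over all members the mitochondrial genes had mean signals of 5.22 to 8.00 log2 units, against 7.82 to 10.81 for the cytosolic genes. RMA compresses the folds of dim genes, and the part of signal level in these gaps was not tested. Differences between genes were described and not tested.

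**Figure D3:**
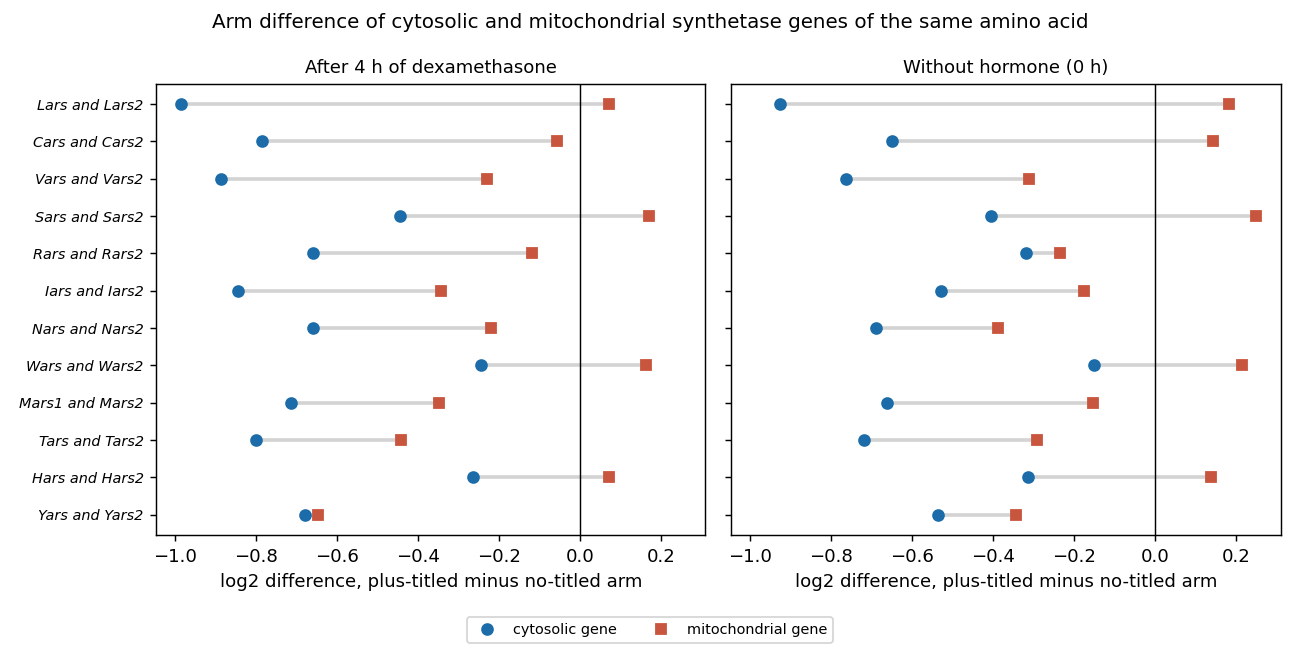
Log2 difference between the plus-titled and the no-titled arm of the cytosolic gene (circle) and the mitochondrial gene (square) of 12 amino acids, at 4 h of dexamethasone (left) and at 0 h (right). In each pair the circle lies left of the square, by -0.03 (Yars at 4 h) to -1.11 (Lars at 0 h) log2 units.

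With dexamethasone, 1 synthetase gene was called, Nars2, the mitochondrial asparaginyl-tRNA synthetase gene, which rose in both arms. Untreated cells were sampled at 0 h only. Hormone and 4 h of elapsed time can therefore not be told apart, here and for all other hormone responses given. In the plus-titled arm Nars2 stood at 7.44 and 7.34 at 4 h and 6.57 and 6.33 at 0 h, and the rise was 0.94 ± 0.12 (SE) on the log2 scale (95% interval 0.69 to 1.20, a ratio of 1.92, adjusted p = 0.00228). In the no-titled arm it stood at 7.66 and 7.57 at 4 h and 6.87 and 6.81 at 0 h, a rise of 0.77 ± 0.12 (95% interval 0.52 to 1.03, a ratio of 1.71, adjusted p = 0.00648). Hormone-treated and untreated arrays did not overlap in either arm. The same, with the treated arrays higher, held for 3362 of all 19938 genes in the plus-titled arm and 4210 in the no-titled arm. Of all genes, 0.823% were called higher with dexamethasone in the plus-titled arm, 1.03% in the no-titled arm and 0.527% in both. The responses of Nars2 in the arms differed by 0.17 (95% interval -0.20 to 0.53, adjusted p = 0.997). The call in the plus-titled arm held in all 8 fits without 1 array. In the no-titled arm the adjusted p was 0.0809 without no-titled 4 h replicate 1, 0.0556 without no-titled 0 h replicate 1 and 0.079 without no-titled 0 h replicate 2.

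The cytosolic gene for the same amino acid, Nars, had a response of 0.00 ± 0.11 in the plus-titled arm and -0.03 ± 0.11 in the no-titled arm. Nars was thus called between the arms and not with hormone, and Nars2 with hormone and not between the arms. Nars2 still lay lower in the plus-titled arm, by limma at -0.22 (adjusted p = 0.313) at 4 h and -0.39 (adjusted p = 0.065) at 0 h. Its arrays of the arms did not overlap at either time, and the genes were not tested against each other. The other 33 genes passed in neither arm, where 1.1% of all genes in the plus-titled arm and 1.43% in the no-titled arm were called in either direction. Cytosolic responses ran between -0.23 and 0.09 in the plus-titled arm (median -0.04) and between -0.08 and 0.19 in the no-titled arm (median 0.04). The 16 mitochondrial genes had medians of -0.07 and 0.06. No member was called for a difference between the responses of the arms, where 1 of 19938 genes (0.00502%) was called. An unadjusted p under 0.05 was found for 1 of the 34 members, against 1018 of the 19938 genes.

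**Figure D4:**
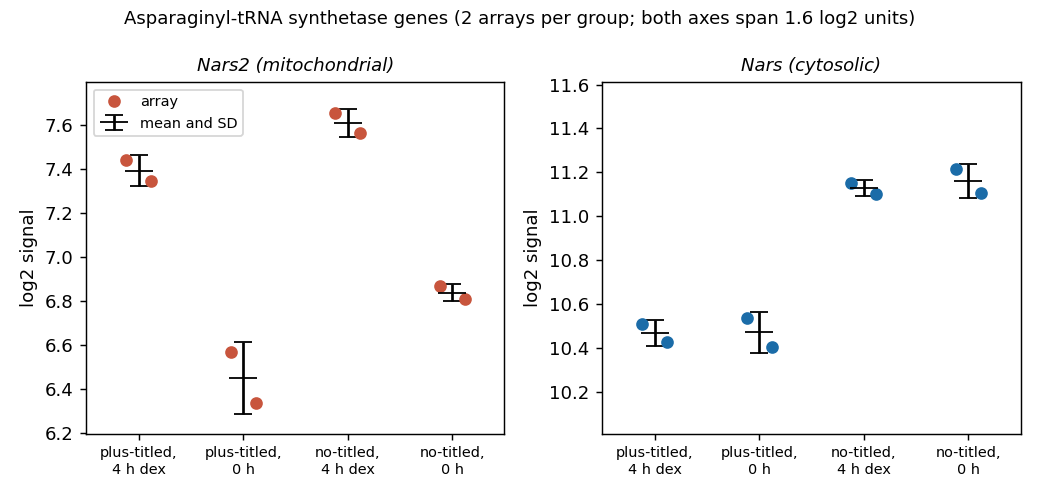
Log2 signal of Nars2 (left) and Nars (right) on the 8 arrays, with points for arrays, a horizontal mark for the group mean and bars for the SD (n = 2 per group). The axes start at different levels and span the same range. Nars2 lies higher at 4 h of dexamethasone than at 0 h in both arms. Nars and Nars2 lie lower in the plus-titled arm at both times, a difference called for Nars only.

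Genes around the synthetases were read from lists drawn from general knowledge. Of 21 measured genes of the ATF4 amino-acid and stress program, 12 were lower in the plus-titled arm at 4 h and 14 at 0 h, with 0 higher and medians of -0.61 and -0.73. Of all genes 4.32% were lower at 4 h and 3.18% at 0 h, and of those in the level range of the cytosolic synthetases 10.4% and 7.71%, which are also the shares beside which the counts of the next lists stand. Atf4 itself had 8.50 and 8.46 log2 units at 4 h and 8.86 and 8.88 at 0 h in the plus-titled arm, against 9.27 and 9.37 at 4 h and 9.52 and 9.57 at 0 h in the no-titled arm. It was lower, at -0.84 ± 0.10 (adjusted p = 0.00104) at 4 h and -0.67 ± 0.10 (adjusted p = 0.00324) at 0 h. Asns, which makes asparagine, had differences of -0.83 ± 0.11 (adjusted p = 0.00131) at 4 h and -0.69 ± 0.11 (adjusted p = 0.0036) at 0 h. The largest differences in this list at 4 h were those of Aldh1l2, a mitochondrial folate enzyme (-1.88), Trib3, a pseudokinase that feeds back on ATF4 (-1.38), Shmt2, the mitochondrial serine hydroxymethyltransferase (-1.23), and Aldh18a1, of proline synthesis (-1.20). With dexamethasone, Ddit4, an inhibitor of mTORC1, and Cebpb, a C/EBP family factor, rose in both arms, by 2.28 and 0.93 in the plus-titled arm and by 1.74 and 0.95 in the no-titled arm. The Ddit4 calls were kept in all 8 fits without 1 array, and those of Cebpb in 6 in the plus-titled arm and 7 in the no-titled arm. Trib3 fell by 0.65 in the plus-titled arm, a call kept in 2 of 8 fits without 1 array, and Ddit3, another C/EBP family factor, fell by 0.69 in the no-titled arm, kept in 4 of 8. Myc, a transcription factor of growth genes, was lower, at -1.23 ± 0.12 (adjusted p = 0.000328) at 4 h and -1.45 ± 0.12 (adjusted p = 0.00014) at 0 h.

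Amino-acid transporter genes were lower in 7 of 10 cases at 4 h and 6 of 10 at 0 h, with 0 higher. They were led by Slc7a11, the cystine transporter (-2.27 at 4 h), Slc6a9, for glycine (-0.86), Slc1a5, for glutamine and other neutral amino acids (-0.85), and Slc1a4, for alanine, serine and cysteine (-0.80). Of the 3 scaffold genes of the multisynthetase complex, Aimp2 was lower at both times, at -0.64 ± 0.11 (adjusted p = 0.00448) at 4 h and -0.54 ± 0.11 (adjusted p = 0.0109) at 0 h, the call at 0 h being kept in 5 of 8 fits without 1 array. Aimp1 and Eef1e1 did not pass, at -0.39 and -0.51 at 4 h and -0.40 and -0.47 at 0 h. Of 7 measured genes of tRNA export and maturation, Xpot, the tRNA exportin, was lower at both times (-0.93 and -0.75), and Pop1, of RNase P, and Trnt1, which adds the CCA end, were lower at 4 h (-0.80 and -0.45). The 4 h call was kept in 8 of 8 fits without 1 array for Pop1 and in 2 for Trnt1.

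No gene among the listed mitochondrial partners of the synthetases passed. Of all genes, 4.32% were called lower and 5.29% higher at 4 h, and 3.18% lower and 6.2% higher at 0 h. In the level range of the mitochondrial synthetases, 5.65% were called lower at 4 h and 3.73% at 0 h. At such shares, lists this short would hold few calls or none. Of the 4 genes of the mitochondrial tRNA amidotransferase and formyltransferase, 0 were called at either time, and Qrsl1 and Gatc had -0.41 ± 0.15 (adjusted p = 0.118) and -0.18 ± 0.12 (adjusted p = 0.459) at 4 h. Of the 9 mitochondrial translation factors 0 were called, with -0.45 ± 0.14 (adjusted p = 0.082) for Mtrf1l, a release factor, and -0.33 ± 0.11 (adjusted p = 0.084) for Tufm, the elongation factor, at 4 h. In the other direction Mrrf, the ribosome recycling factor, had 0.40 ± 0.13 (adjusted p = 0.0851) at 0 h, and it is given here after its values were seen.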

How the data were processed

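Total RNA was measured on 8 oligonucleotide arrays (4 groups, 2 arrays per group). The authors deposited log2 expression values for 28888 probe sets, made with Affymetrix Expression Console and RMA per the submitters' processing notes (versions not given in the sources used here). Since RMA equalizes the distributions of the arrays, shifts common to most genes are lost, and folds of dim genes are compressed. Exactly 1 symbol was annotated to 21789 probe sets, several to 1621 and none to 5478, and 21698 symbols were found by gene number in a RefSeq mouse table used for names. The brightest probe set per gene gave 19938 genes, tested with lmFit and eBayes of limma 3.58.1, run in R 4.3.3 (1 mean per group, 2-sided, Benjamini-Hochberg over all genes). All adjusted p-values are from this model, which had 4 residual degrees of freedom and a prior of 6.64 with an SD of 0.127. Values after ± are standard errors. The number of arrays limits the precision. The procedure was checked on simulated data.

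The members and lists were chosen with earlier results of these data known. Every called synthetase is named, with up to 4 called genes per list or, with none, up to 2 of smallest p, and Atf4, Asns and Myc. Aars shares its probe set with Exosc6 and Tarsl2 is outside the symbol rule, so neither is a member. Replicate numbers were not used as pairs in the main fit. Same-numbered arrays had deviations from their group means that correlated at -0.02 to 0.13 between groups, and such low values cannot exclude a pairing. Alternatives were cyclic loess, median centring, a trended robust variance, the replicate number as a block, the 4 arrays of a contrast alone, leaving out the dimmest 30% of genes, the mean or all of a gene's probe sets, and each array left out in turn.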

Additional observations from a re-analysis of the deposited data

How the results depend on the processing

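No called synthetase changed direction under any alternative run. At 4 h the main count of 14 lower genes was 13 to 15 under the 8 alternatives that keep all arrays and 9 to 14 with 1 array left out. At 0 h the main count of 11 was 10 to 14 and 5 to 11. With the replicate block the counts were 15 at 4 h and 12 at 0 h, with 1 gene for dexamethasone in each arm and 0 for the difference of responses, so the block lost no call. The dexamethasone count in the plus-titled arm was 1 in every fit. In the no-titled arm it was 0 to 1 with 1 array left out, and the difference of responses had 0 calls in each fit. The gap between the cytosolic and mitochondrial medians was -0.54 at 4 h (-0.48 with cyclic loess, -0.58 to -0.42 with 1 array left out) and -0.40 at 0 h (-0.49 to -0.40 with 1 array left out). With all arrays kept, calls were lost for Sars at 0 h (adjusted p = 0.0863 with median centring and 0.0836 with only the 4 arrays compared) and Tars2 at 4 h (0.0536 with only the 4 arrays compared). Genes that gained a call under some of the 16 alternatives were Nars2 (5) and Farsb (3) at 0 h, Rars (1) at 0 h and Yars2 (5) at 4 h. The causes of these shifts were not tested. The number of arrays, 2 a group, limits what could be called.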

Other observations

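Genes of the sensing and use of charged tRNA outside the lists above behaved unevenly. Among 7 measured genes of eIF2 control (4 kinases, 2 phosphatase subunits and Eif2b5, a subunit of the eIF2 exchange factor), 3 kinase genes were higher in the plus-titled arm at 0 h and 1 phosphatase gene was lower at 4 h. Of all genes, 6.2% were called higher and 3.18% lower at 0 h, and 5.29% higher and 4.32% lower at 4 h. These shares also stand beside the counts of the lists below. In lists this short, 1 call is not read as a result about the list. Eif2ak4, which encodes the uncharged-tRNA sensor GCN2, had 6.99 and 7.06 in the plus-titled 4 h arrays and 7.21 and 7.03 in the plus-titled 0 h arrays, against 6.70 and 6.89 in the no-titled 4 h arrays and 6.50 and 6.67 in the no-titled 0 h arrays. It differed by 0.53 ± 0.12 (adjusted p = 0.0219) at 0 h and did not pass at 4 h, at 0.23 ± 0.12 (adjusted p = 0.321). Eif2ak1 and Eif2ak2 had 0.51 ± 0.11 (adjusted p = 0.0201) and 0.57 ± 0.16 (adjusted p = 0.0485) at 0 h, and Ppp1r15b, a subunit of the eIF2 phosphatase, had -0.53 ± 0.13 (adjusted p = 0.0257) at 4 h. Each of these calls was lost in some fits without 1 array, and 5, 5, 1 and 6 of 8 fits kept that of Eif2ak4, Eif2ak1, Eif2ak2 and Ppp1r15b.

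Of 5 measured cytosolic elongation factor genes, Eef1b2, an exchange factor of the factor that brings charged tRNA to the ribosome, was lower, at -0.65 ± 0.13 (adjusted p = 0.0131) at 4 h and -0.72 ± 0.13 (adjusted p = 0.00838) at 0 h, with the call kept in 6 of 8 fits without 1 array at each time. Of 6 other tRNA charging and editing genes, Aarsd1, which encodes an enzyme related to the editing domain of alanyl-tRNA synthetase, was lower, at -0.81 ± 0.10 (adjusted p = 0.0012) at 4 h and -0.67 ± 0.10 (adjusted p = 0.00314) at 0 h. Sepsecs, which makes selenocysteyl-tRNA, was higher at 0 h, at 0.41 ± 0.10 (adjusted p = 0.0322), a call kept in 2 of 8 such fits.

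The probe set annotated to both Aars, the cytosolic alanyl-tRNA synthetase gene, and Exosc6 stood at 8.86 and 8.70 in the plus-titled 4 h arrays and 8.86 and 8.81 in the plus-titled 0 h arrays, against 9.55 and 9.48 in the no-titled 4 h arrays and 9.50 and 9.39 in the no-titled 0 h arrays. The arms did not overlap, and the signal of the pair of genes cannot be told apart. Tarsl2, a threonyl-tRNA synthetase gene outside the symbol rule, did not pass, at -0.15 ± 0.12 (adjusted p = 0.53) at 4 h and 0.27 ± 0.12 (adjusted p = 0.211) at 0 h.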
